A study of Homo sapiens with 9 samples.

Results

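The genes described are 53 protein-coding genes along the long arm of chromosome 21, the chromosome that carries *DYRK1A*, chosen by symbol from the deposited table of 60662 genes. Of these, 7 lie beside *DYRK1A*, in the stretch from *MORC3* to *ETS2*, and 46 lie further away, 27 of them toward the centromere and 19 toward the telomere. *DYRK1A* is the edited gene and was not counted among them. The data are bulk RNA-seq of SET2, a megakaryoblastic leukemia line with a *JAK2* mutation, in 9 libraries: untreated WT cells (n = 3) and 2 clones with *DYRK1A* knocked out (KO), also untreated, 11H1 with 3 libraries and 14B5 with 3. Each clone was made by nucleofection of Cas9 with 1 guide RNA against *DYRK1A*, was grown from 1 sorted cell, and was kept because its indels were all out of frame. The libraries of a clone therefore share a founder cell, and no single-cell clone without an edit was analysed here. Nothing in the labels says that libraries of a group came from separate cultures, so the p values measure the spread between these libraries. The question put to the data was whether the neighbors of *DYRK1A* differed from WT in each clone, and whether those beside the edited gene differed from those further along the arm.

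Chromosome 21 is the smallest human autosome, and its extra copy causes Down syndrome, in which *DYRK1A*, *ERG*, *ETS2*, *SON* and the interferon receptor genes are among the genes studied for their dosage. Gain of part of its long arm recurs in leukemia. A gene's RNA level follows, among others, the number of its copies and the activity of its promoter, which bulk RNA-seq does not separate. In a bulk sample, fewer cells expressing a gene and less RNA per cell cannot be told apart.

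Library totals ran from 32347779 to 60272245 expected counts (RSEM's estimate of the reads from each gene), and levels are given as CPM, counts per TMM-scaled total of the library. A change is a log2FC with its standard error (SE) from edgeR's quasi-likelihood test, its p value was adjusted over all genes tested (Benjamini-Hochberg), and a gene is called higher or lower where the adjusted p is below 0.05. All 53 genes passed the filter on low counts in every comparison. Mitochondrial genes took 3.54% to 6.03% of the counts in WT, 7.23% to 7.39% in 11H1 and 3.30% to 3.92% in 14B5. Megakaryoblast markers were present in all groups, summing to 1645 to 1682 CPM in WT, 1229 to 1301 CPM in 11H1 and 1287 to 1349 CPM in 14B5. Of these 8 markers 7 were called lower in 11H1, and 6 lower and 1 higher in 14B5, and *PF4* was at 0 in every KO library. Erythroid markers summed to 12757 to 14545 CPM in WT, 11981 to 12997 CPM in 11H1 and 14107 to 15624 CPM in 14B5. Markers of granulocytes and monocytes summed to 196 to 199 CPM in WT and to 102 to 124 CPM in the clones, nearly all of it *LYZ*. Those of lymphoid cells summed to 11.1 to 23.4 CPM over the 9 libraries, nearly all of it *CD79A*, and those of stroma to 0.853 to 2.95 CPM. The part of these shifts in the results was not tested.

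*DYRK1A*, a kinase that phosphorylates cell cycle and transcription regulators, lies at chr21:37365573-37526358, plus strand (GRCh38, GENCODE v29; as for all positions given, placed by the gene identifier ENSG00000157540.21 without its version). *DYRK1A* RNA measured 197, 196 and 218 CPM in the WT libraries, 188, 191 and 192 CPM in the 11H1 libraries and 191, 182 and 174 CPM in the 14B5 libraries. All 6 KO libraries were below the lowest WT library. The log2FC was −0.09 (SE 0.05, adjusted p = 0.131) in 11H1 and −0.17 (SE 0.06, adjusted p = 0.0278) in 14B5, so that RNA was lower past the threshold in 14B5 alone. That call was lost without 14B5 library 2 (adjusted p = 0.113), 14B5 library 3 (0.103) or WT library 3 (0.138), and the difference between the clones was 0.07 (SE 0.05, adjusted p = 0.216). The reading frame cannot be read from gene counts.

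Of the 7 genes beside *DYRK1A*, all 7 were called lower in 11H1, and in 14B5 5 were called lower, *CHAF1B* was called higher and *MORC3* was not called. Of all genes tested in 11H1 versus WT, 64.6% were called, 32.8% lower and 31.8% higher. In 14B5 versus WT 53.5% were called, 28.7% lower and 24.9% higher. The median log2FC of the 7 was −0.40 in 11H1 and −0.46 in 14B5, where the median of all genes tested was −0.01 in each. Both comparisons use the same 3 WT libraries, so the clones are not independent readings of the same shift. Because a single gene compared in 3 libraries against 3 cannot go below p = 0.1 in a 2-sided exact permutation test, that value holds for every gene whose groups do not overlap, and the calls rest on the fit across all genes.

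**Figure D1:**
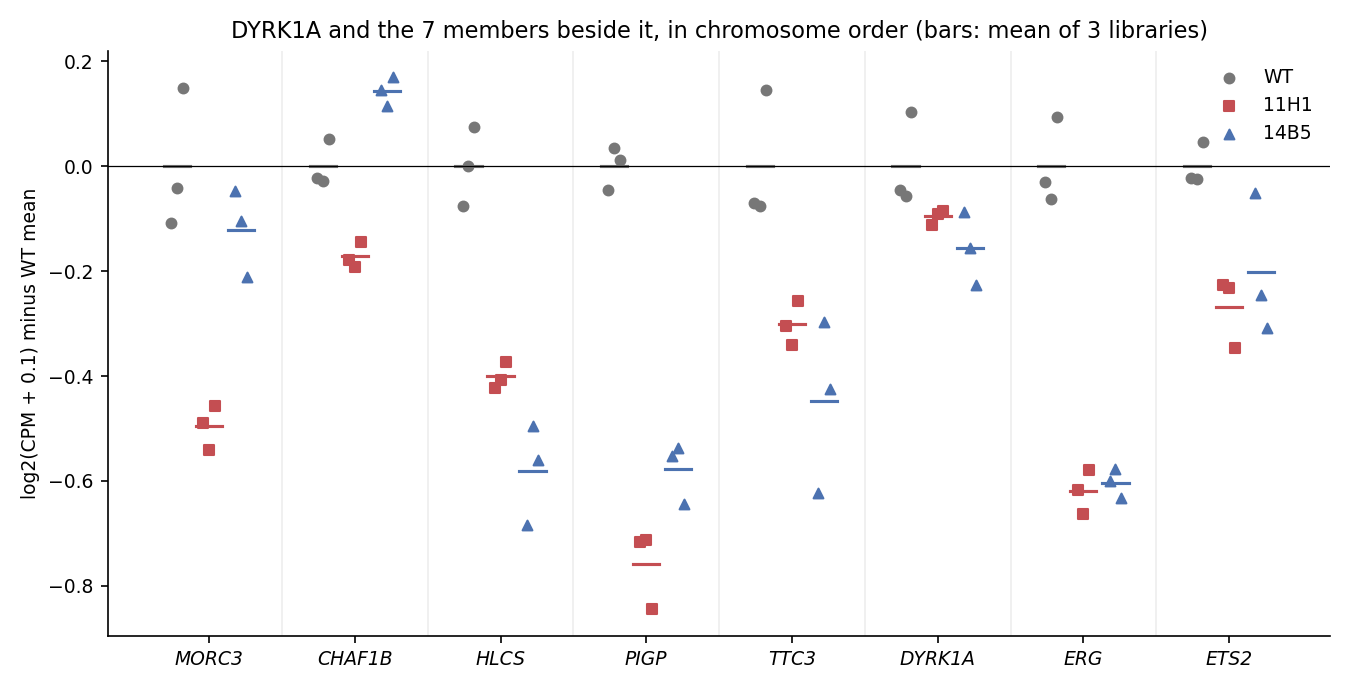
Log2(CPM + 0.1) minus the mean of the WT libraries, for *DYRK1A* and the 7 genes beside it in chromosome order; each point is 1 library of WT (gray circles), 11H1 (red squares) or 14B5 (blue triangles), and each bar is the mean of 3 libraries. *HLCS*, *PIGP*, *TTC3* and *ERG* lie below WT in all 6 KO libraries, whereas *CHAF1B* lies below WT in 11H1 and above it in 14B5.

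At the centromeric edge of the stretch lie 2 chromatin genes in tandem. *MORC3*, a nuclear body protein that binds methylated histone H3 (chr21:36320189-36386148, plus strand), was at 166, 174 and 199 CPM in the WT libraries, 128, 123 and 130.4 CPM in the 11H1 libraries and 173, 167 and 155 CPM in the 14B5 libraries. Its 11H1 libraries were all below WT and its 14B5 libraries overlapped WT, with a log2FC of −0.49 (SE 0.06, adjusted p = 2.56e-05) in 11H1 and −0.14 (SE 0.07, adjusted p = 0.121) in 14B5. *CHAF1B*, the middle subunit of the histone chaperone CAF-1 (chr21:36385378-36419015, plus strand), was at 58.1, 57.9 and 61.2 CPM in the WT libraries, 52.2, 51.7 and 53.5 CPM in the 11H1 libraries and 65.3, 63.9 and 66.4 CPM in the 14B5 libraries. The clones fell on opposite sides of WT without overlap: its log2FC was −0.17 (SE 0.05, adjusted p = 0.00757) in 11H1 and 0.13 (SE 0.05, adjusted p = 0.0384) in 14B5. The rise in 14B5 was small and lost its call without 14B5 library 1 (adjusted p = 0.0532), 14B5 library 3 (0.0972), WT library 1 (0.111) or WT library 2 (0.125). *MORC3* and *CHAF1B* overlap on the same strand, and reads from the overlap could be given to either. Tested directly, 11H1 was below 14B5 by −0.37 (SE 0.05, adjusted p = 4.96e-05) for *MORC3* and −0.31 (SE 0.04, adjusted p = 5.94e-05) for *CHAF1B*. Of 8 other histone chaperone genes, named for their work beside *CHAF1B*, 5 were called higher and 0 lower in 11H1, and 7 higher and 0 lower in 14B5. *ASF1B*, which hands histones to CAF-1, had a log2FC of 0.24 in 11H1 and 0.35 in 14B5, and *CHAF1A*, the large subunit of CAF-1, 0.27 in both.

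*HLCS*, the ligase that attaches biotin to carboxylases (chr21:36750888-36990236, minus strand), was at 36.4, 38.4 and 40.5 CPM in the WT libraries, 28.6, 28.9 and 29.6 CPM in the 11H1 libraries and 23.9, 27.2 and 25.99 CPM in the 14B5 libraries. Every KO library was below every WT library. The log2FC was −0.40 (SE 0.05, adjusted p = 4.32e-05) in 11H1 and −0.60 (SE 0.06, adjusted p = 2.56e-05) in 14B5. The clones differed by 0.18 (SE 0.06, adjusted p = 0.0138), a call lost without 11H1 library 3 (adjusted p = 0.0552) or 14B5 library 1 (0.0655).

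*PIGP* and *TTC3* lie head to head on opposite strands, with starts within 1000 bases of each other, and both were lower in both clones. *PIGP*, a subunit of the enzyme that starts the GPI anchor of surface proteins (chr21:37059170-37073170, minus strand), was at 18.95, 20.04 and 19.7 CPM in the WT libraries, 11.9, 11.9 and 10.9 CPM in the 11H1 libraries and 13.3, 13.4 and 12.5 CPM in the 14B5 libraries. *TTC3*, a ubiquitin ligase of AKT (chr21:37073226-37203112, plus strand), was at 263, 262 and 305 CPM in the WT libraries, 224, 218 and 231 CPM in the 11H1 libraries and 179, 225 and 206 CPM in the 14B5 libraries. For both genes the 6 KO libraries were all below the WT libraries, and for *TTC3* the 14B5 libraries spread more than those of 11H1. The log2FC of *PIGP* was −0.75 (SE 0.07, adjusted p = 1.47e-06) in 11H1 and −0.60 (SE 0.06, adjusted p = 2.22e-05) in 14B5. That of *TTC3* was −0.30 (SE 0.06, adjusted p = 0.000976) in 11H1 and −0.46 (SE 0.09, adjusted p = 0.00118) in 14B5. *PIGP* was lower in 11H1 than in 14B5 by a narrow margin, −0.17 (SE 0.07, adjusted p = 0.0398), and of the 6 left-out libraries 5 took that call away, with adjusted p values of up to 0.123. For *TTC3* the clones differed by 0.15 (SE 0.07, adjusted p = 0.0776), a difference that was called without 14B5 library 2 (0.22, adjusted p = 0.0106). Of 6 other genes of the first step of the GPI anchor, 2 were called higher and 1 lower in 11H1 and 3 higher and 0 lower in 14B5. *PIGQ*, a further subunit of the same enzyme, and *DPM2*, which regulates it, were higher in both clones, *DPM2* by 0.13 in 11H1 and 0.25 in 14B5. *PIGA*, its catalytic subunit, had 0.02 and 0.12, neither called.

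The stretch between *PIGP* and *TTC3* that no annotated exon covers serves both genes. It is printed from RefSeq (GRCh38.p14), 5′ to 3′ on the plus strand, with *HLCS* on its own strand for comparison. The *HLCS* stretch, chosen after the matches were seen, is from the one of its windows that holds a searched motif. That window belongs to a RefSeq start at 36966669, inside the annotated gene. The stretch before the annotated start, chr21:36990237-36990461, holds none. Motifs are shown in capitals (ETS core, CCGGAAG or its complement CTTCCGG).
*PIGP* and *TTC3*, chr21:37073171-37073225, plus strand, 55 bases: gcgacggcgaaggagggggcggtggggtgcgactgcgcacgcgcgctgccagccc
*HLCS*, chr21:36966670-36966919, minus strand, 250 bases: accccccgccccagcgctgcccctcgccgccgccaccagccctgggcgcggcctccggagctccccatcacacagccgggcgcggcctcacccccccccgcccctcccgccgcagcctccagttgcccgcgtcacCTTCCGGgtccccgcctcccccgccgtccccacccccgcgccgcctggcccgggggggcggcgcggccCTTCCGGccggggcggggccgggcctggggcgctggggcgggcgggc
RefSeq gave promoter windows (250 bases before to 50 after a start) for 42 of the 53 genes, in 69 distinct windows, since a gene can have several starts. The motifs were searched on both strands: the ETS core CCGGAAG, the E2F sites TTTGGCGC or TTTCCCGC, the CHR element TTTGAA and the STAT site TTCNNNGAA, which can overlap one another. The ETS core was in 15 of 69 windows of these genes (21.7%) and in 10.2% of all 34796 distinct windows. Beside *DYRK1A* it was in 2 of 16 windows, those of *MORC3* and *HLCS*. The E2F sites were in 7.25% of the genes' windows and 2.27% of all, the CHR element in 8.70% and 15.2%, and the STAT site in 4.35% and 7.67%. Beside *DYRK1A*, *ERG* alone held a CHR element, and no window held an E2F or STAT site. None of these letters is in the 55 bases between *PIGP* and *TTC3*. A match is a description of the sequence and not a bound site.

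Telomeric of *DYRK1A* lie 2 ETS family transcription factor genes. *ERG*, a factor of blood stem cells and megakaryocytes (chr21:38380027-38661780, minus strand), was at 140.4, 137 and 153 CPM in the WT libraries, 93.5, 90.6 and 95.96 CPM in the 11H1 libraries and 94.6, 96.1 and 92.5 CPM in the 14B5 libraries. Its KO libraries were all below WT, and the clones overlapped each other. The log2FC was −0.61 (SE 0.05, adjusted p = 8.66e-07) in 11H1 and −0.62 (SE 0.05, adjusted p = 4.72e-06) in 14B5, with −0.01 (SE 0.04, adjusted p = 0.867) between the clones. *ETS2*, a factor downstream of MAPK signaling (chr21:38805307-38824955, plus strand), was at 239.9, 239.7 and 252 CPM in the WT libraries, 208, 207 and 192 CPM in the 11H1 libraries and 235, 206 and 197 CPM in the 14B5 libraries. All 6 KO libraries were below WT, 14B5 library 1 by the least. The log2FC was −0.26 (SE 0.05, adjusted p = 0.000577) in 11H1 and −0.21 (SE 0.07, adjusted p = 0.0202) in 14B5, and the call in 14B5 was lost without 14B5 library 2 (adjusted p = 0.114), 14B5 library 3 (0.0753), WT library 2 (0.0508) or WT library 3 (0.0732). Of 15 ETS factor and partner genes on other chromosomes, 9 were called higher and 4 lower in 11H1, and 6 higher and 5 lower in 14B5. Among them *FLI1*, the factor most like *ERG*, had a log2FC of −0.64 in 11H1 and −1.11 in 14B5, *SPI1*, which drives myeloid cells, −0.76 and −0.74, and *ETS1* 0.23 and −0.83, each called.

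Of the 46 genes further away, 22 were called lower and 13 higher in 11H1, and their median log2FC was −0.16. That is 76.1% called, against 64.6% of all genes tested. In 14B5, 10 were called lower and 12 higher, with a median of 0.02. That is 47.8% called, not above the 53.5% of all genes tested. The sides of the stretch differed in 11H1. There the 27 genes before *MORC3* were mostly lower, as were those beside *DYRK1A*, with 17 called lower and 4 higher (63.0% lower, median −0.27), whereas of the 19 after *ETS2* 5 were called lower and 9 higher (median 0.12). In 14B5, 7 of the 27 were called lower and 6 higher (median −0.03), and 3 of the 19 lower and 6 higher (median 0.06). The counts of the 19 take *U2AF1* without its near-identical copy. Per library, as log2(CPM + 0.1) minus the WT mean, the median of the 7 genes beside *DYRK1A* was −0.42, −0.41 and −0.37 in 11H1 and −0.55, −0.30 and −0.42 in 14B5, against −0.05, −0.03 and 0.08 in WT. That of the 27 before *MORC3* was −0.29, −0.30 and −0.26 in 11H1. The median of the 46 was −0.18, −0.12 and −0.14 in 11H1 and 0.05, 0.07 and 0.04 in 14B5. In each of the 6 KO libraries the genes beside *DYRK1A* thus had the lower median; genes are not replicates, so no p is given. The difference of the medians, beside minus further away, was −0.23 in 11H1 and −0.48 in 14B5. All chromosome 21 genes tested outside the stretch, the 46 among them, had a median of 0.02 in 11H1 (200 genes) and −0.07 in 14B5 (191 genes). With these counted as further away, the difference was wider in 11H1, at −0.42, and narrower in 14B5.

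**Figure D2:**
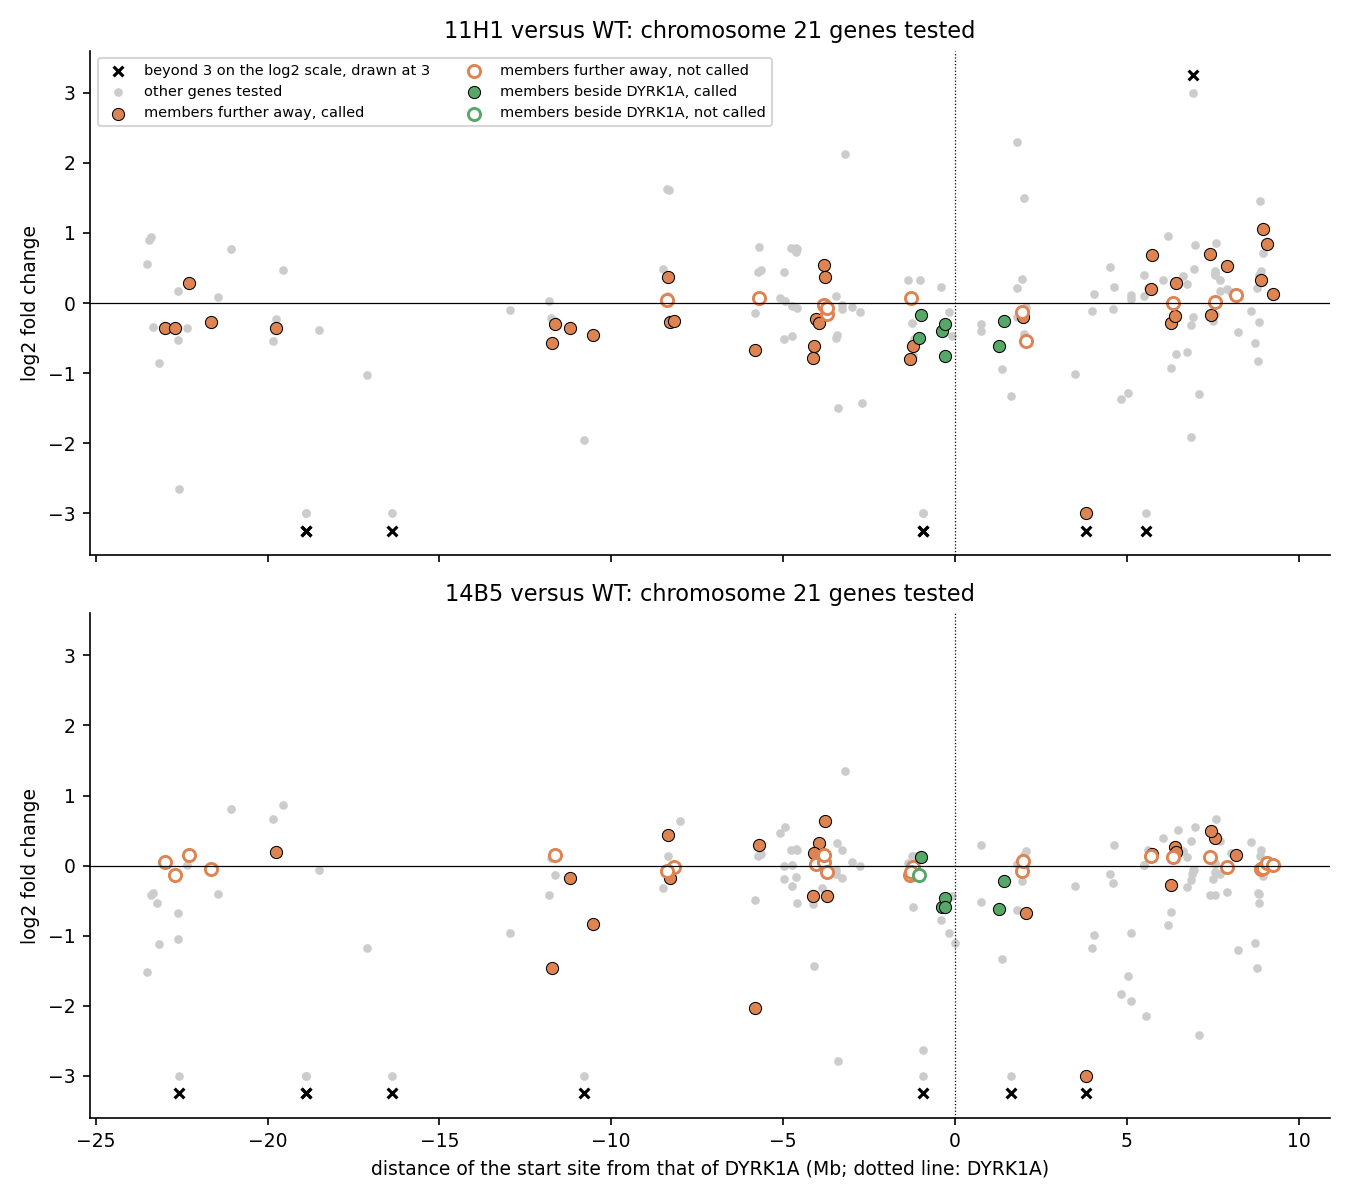
Log2 fold change of each chromosome 21 gene tested in 11H1 versus WT (top) and 14B5 versus WT (bottom) against the distance of its start from that of *DYRK1A*, in Mb; green points are the 7 genes beside *DYRK1A*, orange points the 46 further away (filled where called, open where not), gray points the other genes, and a cross marks a value beyond 3 on the log2 scale. Near *DYRK1A* the green points lie mostly below 0 in both panels, and the points at 7.5 to 10 Mb lie mostly above 0 in 11H1 and near 0 in 14B5.

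Other chromosome 21 genes tested near *DYRK1A* also mostly had negative values. Outside the stretch the other genes did not follow the 46. From *MORC3* to *ETS2*, 9 genes that are not among the 53 were tested in each clone. In 11H1 4 of them were called lower and 0 higher (44.4% called, against 64.6% of all genes; median log2FC −0.41). In 14B5 6 were called lower and 0 higher (66.7%, against 53.5%; median −0.96). Only 5 such genes passed the filter in 11H1 versus 14B5. A gene that passes only through its WT counts must be lower in the clones, and one that passes only through a clone's counts must be higher. How many of the 9 passed in either way was not counted, so these values are no independent support. Outside the stretch, the 154 genes tested in 11H1 that are not among the 53 were 48 higher and 42 lower (median 0.08), and the 145 tested in 14B5 were 26 higher and 44 lower (−0.13). These medians lie on the other side of 0 from those of the 46 in each clone. In windows of 2.5 Mb counted from the start of *DYRK1A*, the median of all genes was −0.44 in 11H1 and −0.43 in 14B5 in the window before it and −0.23 and −0.21 in the window after it. These windows hold 16 to 18 genes each, under the 20 taken as the minimum, and the 9 genes above are among them. From 2.5 to 5 Mb before *DYRK1A* the median was −0.07 in 11H1 (33 genes) and 0.01 in 14B5 (32 genes). The paper reports for SET2 a raised copy number at the *DYRK1A* locus, compared with other cell lines. The number of copies in the clones cannot be read from these counts, and its part in the values was not tested. The loss of *DYRK1A* and the founder cell of a clone cannot be told apart here. The width that counts as beside matters in 14B5: with the 12 of the 53 within 2000000 bases of the start of *DYRK1A*, the median was −0.35 in 11H1 and −0.14 in 14B5.

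In the window closest to the telomere the clones parted. From 7.5 to 10 Mb beyond *DYRK1A*, 14 of 27 genes were called higher and 4 lower in 11H1 (median log2FC 0.21), and 5 higher and 8 lower in 14B5 (−0.03). Tested directly, 16 of these 27 were higher and 3 lower in 11H1 than in 14B5 (median 0.37), where 31.6% of all genes tested were called higher in 11H1, 32.1% lower and 63.7% in either direction. Of the 53 genes, 7 lie in this window, with a median of 0.32 in 11H1 and 0.01 in 14B5. In the window before it, from 5 to 7.5 Mb, 13 of 30 genes were higher and 10 lower in 11H1 than in 14B5 (median 0.06). The transcripts of the 19 genes after *ETS2* had a median GC content of 53.2%, against 48.4% over all genes tested in 11H1 versus WT, 46.4% beside *DYRK1A* and 44.3% before *MORC3*. With the trend on GC content and length over all genes removed, a check added after the data were seen, the median of these 19 went from 0.12 to 0.09 in 11H1 and from 0.06 to 0.12 in 14B5, and that of the 7 beside *DYRK1A* from −0.40 to −0.44 and from −0.46 to −0.38.

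*PCNT*, the pericentrin scaffold of the centrosome (chr21:46324122-46445769, plus strand), rose most in 11H1 among the 46 genes. It was at 204, 207 and 217 CPM in the WT libraries, 458, 401 and 439 CPM in the 11H1 libraries and 186, 213 and 223 CPM in the 14B5 libraries. The lowest 11H1 library was well above the highest WT library, and the 14B5 libraries lay on both sides of WT. The log2FC was 1.05 (SE 0.06, adjusted p = 2.28e-08) in 11H1 and −0.03 (SE 0.07, adjusted p = 0.709) in 14B5. *DIP2A*, a protein of acetyl-coenzyme A metabolism with a role in neurons (chr21:46458899-46569852, plus strand), was at 127, 129.9 and 126 CPM in the WT libraries, 235, 224 and 227 CPM in the 11H1 libraries and 126, 134 and 138 CPM in the 14B5 libraries. Here too 11H1 stood above both other groups, with a log2FC of 0.85 (SE 0.05, adjusted p = 1.93e-08) in 11H1 and 0.04 (SE 0.05, adjusted p = 0.544) in 14B5. *UBE2G2*, a ubiquitin-conjugating enzyme of endoplasmic reticulum quality control (chr21:44768580-44802019, minus strand), was at 454, 449 and 426 CPM in the WT libraries, 722, 718 and 713 CPM in the 11H1 libraries and 480.0, 475 and 507 CPM in the 14B5 libraries, with 0.70 (SE 0.05, adjusted p = 1.07e-07) in 11H1 and 0.12 (SE 0.05, adjusted p = 0.0642) in 14B5. The 14B5 libraries of *UBE2G2* were also all above WT, though by a margin that was not called. Between the clones the difference was 1.07 (SE 0.07, adjusted p = 1.41e-07) for *PCNT*, 0.79 (SE 0.05, adjusted p = 7.51e-08) for *DIP2A* and 0.57 (SE 0.04, adjusted p = 3.14e-07) for *UBE2G2*. Of the neighbors of these genes, *POFUT2*, which puts fucose on secreted proteins, had a log2FC of 0.52 in 11H1 and −0.02 in 14B5, and *MCM3AP*, an mRNA export factor, 0.32 and −0.05. *PRMT2*, an arginine methyltransferase and the gene of the set closest to the telomere, had 0.13 in 11H1 (adjusted p = 0.0209), a call lost without 11H1 library 1 (0.0751), 11H1 library 2 (0.0723) or WT library 2 (0.0753).

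**Figure D3:**
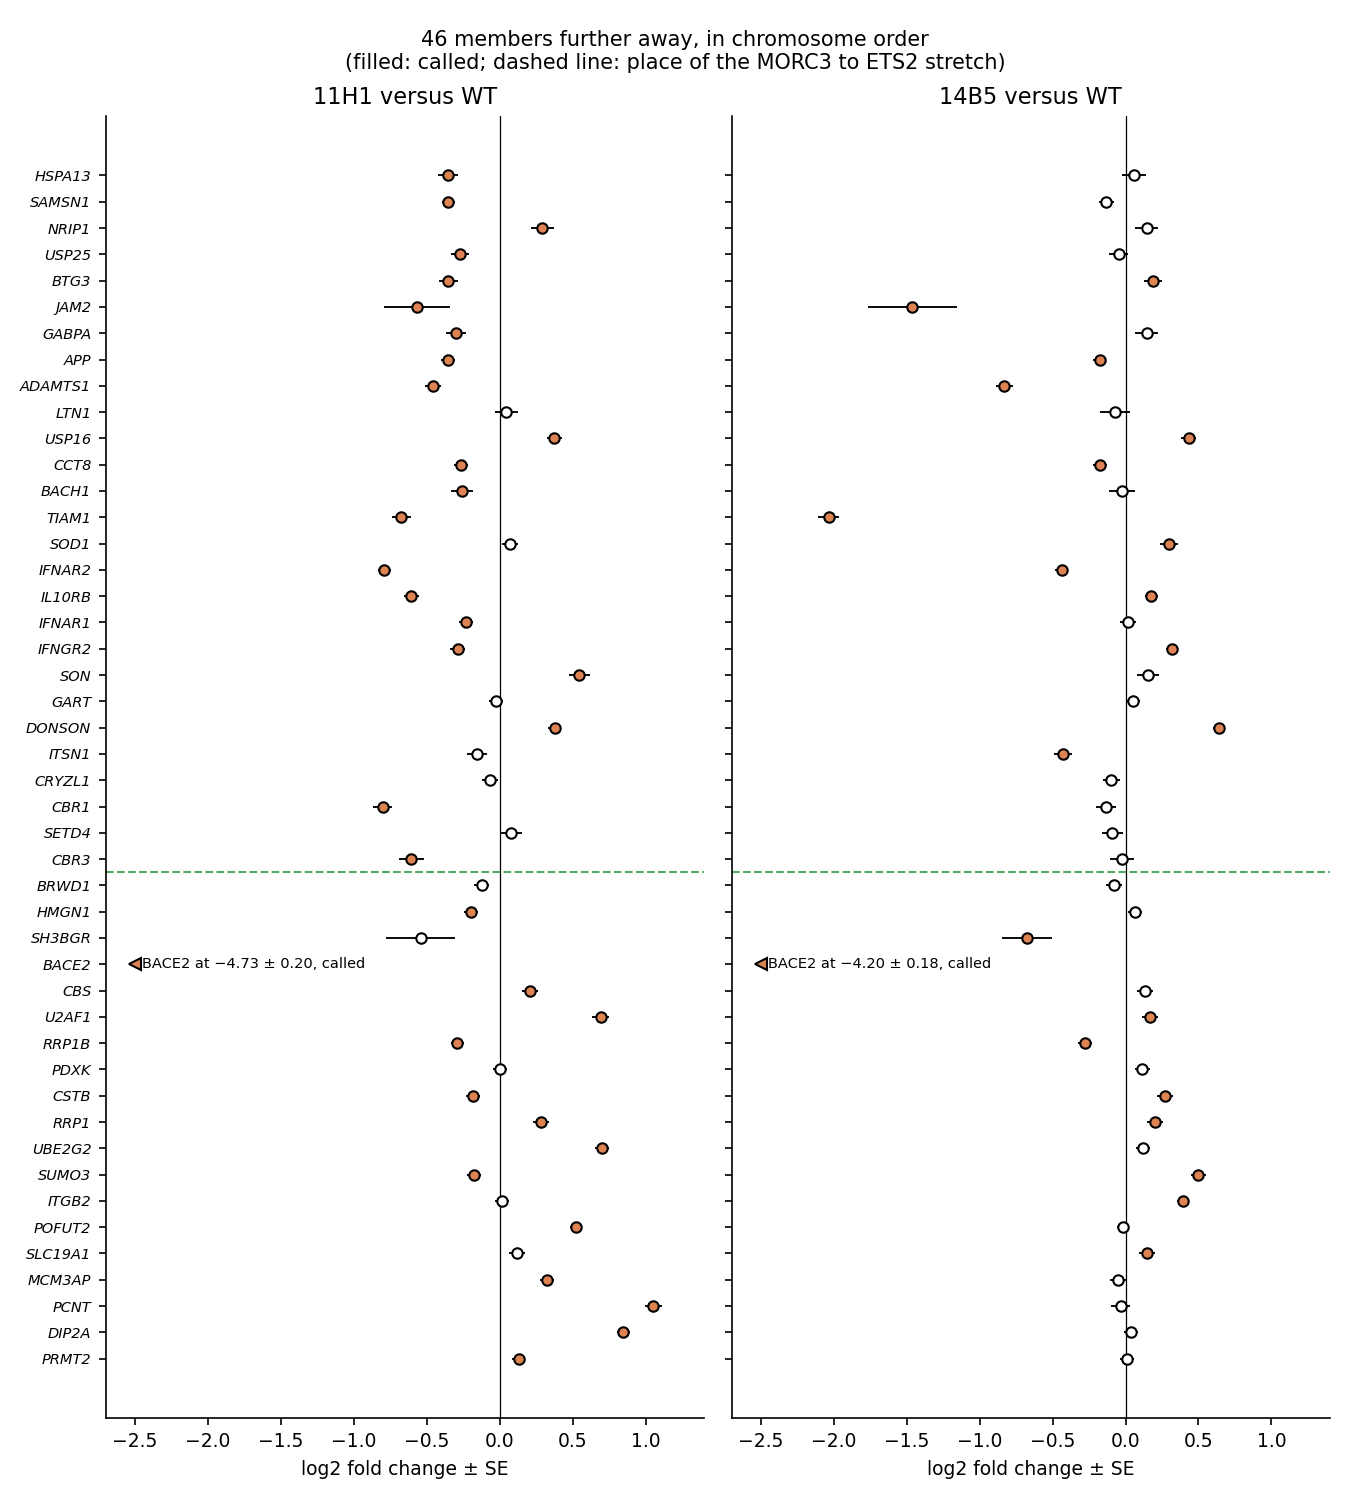
Log2 fold change with its SE for the 46 genes further away, in chromosome order from *HSPA13* to *PRMT2*, in 11H1 versus WT (left) and 14B5 versus WT (right); filled points passed the threshold, the dashed line marks the place of the *MORC3* to *ETS2* stretch, and *BACE2* is beyond the axis and given by its value. In 11H1 most points above the line lie left of 0 and *PCNT*, *DIP2A*, *UBE2G2* and *U2AF1* lie furthest right, whereas in 14B5 the points furthest from 0 are those of *BACE2*, *TIAM1*, *JAM2* and *ADAMTS1*. *U2AF1* is drawn alone, and summed with its near-identical copy *U2AF1L5* it had 0.31 in 11H1.

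The 4 receptor chain genes for interferons and interleukin-10 form a cluster about 4 Mb before *DYRK1A*. All 4 were called lower in 11H1 (median log2FC −0.45), and in 14B5 1 was called lower, 2 higher and 1 was not called (median 0.10). *IFNAR2*, the chain of the type I interferon receptor that docks *STAT2* (chr21:33229901-33265675, plus strand), was at 77.8, 75.2 and 76.8 CPM in the WT libraries, 43.97, 43.7 and 44.6 CPM in the 11H1 libraries and 58.3, 56.2 and 57.3 CPM in the 14B5 libraries. Both clones were below WT and did not overlap each other, with −0.79 (SE 0.04, adjusted p = 2.93e-08) in 11H1 and −0.44 (SE 0.04, adjusted p = 1.99e-05) in 14B5. *IL10RB*, the shared chain of the interleukin-10 and type III interferon receptors (chr21:33266358-33310187, plus strand), was at 53.8, 54.1 and 55.8 CPM in the WT libraries, 37.3, 34.6 and 34.8 CPM in the 11H1 libraries and 63.01, 63.4 and 60.7 CPM in the 14B5 libraries. In 11H1 it lay below WT and in 14B5 above it, with −0.61 (SE 0.05, adjusted p = 8.52e-07) and 0.18 (SE 0.04, adjusted p = 0.00779). *IFNGR2*, the signaling chain of the interferon gamma receptor (chr21:33402896-33479348, plus strand), was at 52.5, 54.5 and 54.03 CPM in the WT libraries, 41.4, 46.3 and 43.8 CPM in the 11H1 libraries and 67.8, 66.9 and 68.6 CPM in the 14B5 libraries. Its groups were again ordered 11H1, WT, 14B5 without overlap, with −0.29 (SE 0.05, adjusted p = 0.000364) in 11H1 and 0.32 (SE 0.04, adjusted p = 0.000165) in 14B5. *IFNAR1*, the other chain of the type I receptor, had −0.23 (SE 0.05, adjusted p = 0.000994) in 11H1 and 0.02 (SE 0.06, adjusted p = 0.789) in 14B5. All 4 were lower in 11H1 than in 14B5, by −0.27 for *IFNAR1* to −0.80 for *IL10RB*. A read-through gene annotated over *IFNAR2* and *IL10RB* held counts equal to 23.3% of those of *IFNAR2* and 26.7% of those of *IL10RB*, so how reads were divided there bears on both values. *IFNGR2* overlaps *TMEM50B* on the opposite strand, and whether the counting used strand is not given in the sources used here.

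The partners of these receptors on other chromosomes moved both ways. Of 12 genes listed, 10 were tested, 5 called higher and 3 lower in 11H1 and 2 higher and 3 lower in 14B5, with a median log2FC of 0.07 in 11H1 and −0.04 in 14B5. *IFNGR1*, the ligand-binding partner of *IFNGR2*, had a log2FC of −0.30 in 11H1 and 0.02 in 14B5 (called in 11H1), and *TYK2*, the kinase on *IFNAR1* and *IL10RB*, 0.45 and −0.12 (called in 11H1). *JAK2*, the kinase on *IFNGR2* and the mutant gene of this line, had −0.61 and −0.31, both called. *SOCS3*, the feedback inhibitor of JAK kinases, had 0.67 and 0.87, and *USP18*, the protease that binds *IFNAR2* and dampens its signal, −1.98 and −1.36, all called. *IRF9*, a transcription factor of the type I response, had 0.56 and 0.42, both called.

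**Figure D4:**
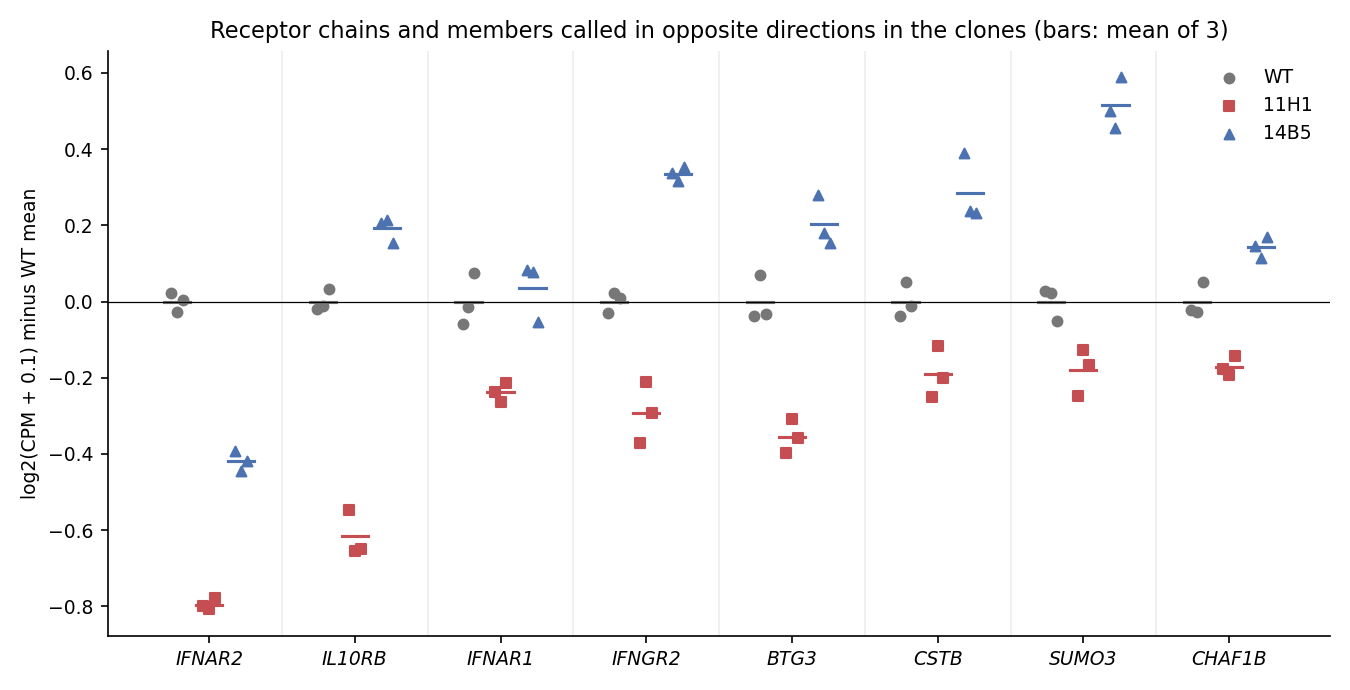
Log2(CPM + 0.1) minus the WT mean per library for the 4 receptor chain genes and for *BTG3*, *CSTB*, *SUMO3* and *CHAF1B*; symbols as in the plot of the genes beside *DYRK1A*, bars are means of 3 libraries. Apart from *IFNAR2* and *IFNAR1*, every gene shown has its 11H1 libraries below WT and its 14B5 libraries above WT.

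Together with *IL10RB*, *IFNGR2* and *CHAF1B*, 3 further genes were called in opposite directions in the clones. How many of all genes tested were called in opposite directions was not counted. *SUMO3*, a ubiquitin-like modifier (chr21:44805617-44818779, minus strand), was at 564, 563 and 535 CPM in the WT libraries, 467, 507 and 494 CPM in the 11H1 libraries and 785, 759 and 833 CPM in the 14B5 libraries. Its groups did not overlap, with −0.17 (SE 0.05, adjusted p = 0.00702) in 11H1 and 0.50 (SE 0.05, adjusted p = 2.50e-05) in 14B5. *BTG3*, an antiproliferative cofactor (chr21:17593653-17612947, minus strand), was at 18.98, 20.4 and 19.05 CPM in the WT libraries, 14.8, 15.7 and 15.2 CPM in the 11H1 libraries and 23.7, 22.1 and 21.7 CPM in the 14B5 libraries, with −0.35 (SE 0.06, adjusted p = 0.000403) in 11H1 and 0.19 (SE 0.06, adjusted p = 0.0241) in 14B5. The rise of *BTG3* in 14B5 was not called without 14B5 library 1 (adjusted p = 0.0590) or WT library 1 (0.0765). *CSTB*, cystatin B, an inhibitor of cathepsins (chr21:43772511-43776445, minus strand), was at 223, 238 and 227 CPM in the WT libraries, 193, 212 and 199.5 CPM in the 11H1 libraries and 300.3, 270.3 and 269 CPM in the 14B5 libraries, with −0.18 (SE 0.05, adjusted p = 0.0057) in 11H1 and 0.27 (SE 0.06, adjusted p = 0.00243) in 14B5. Between the clones, 11H1 was lower by −0.69 (SE 0.05, adjusted p = 2.22e-07) for *SUMO3*, −0.56 (SE 0.06, adjusted p = 6.11e-06) for *BTG3* and −0.47 (SE 0.05, adjusted p = 1.25e-05) for *CSTB*.

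Among the 7 adhesion, surface and secreted genes, 5 were called lower and 1 higher in each clone. *BACE2*, a membrane protease that cleaves *APP* and related proteins (chr21:41167801-41282518, plus strand), fell most of the 53. It was at 4.84, 4.34 and 4.42 CPM in the WT libraries, 0.128, 0.213 and 0.182 CPM in the 11H1 libraries and 0.248, 0.184 and 0.313 CPM in the 14B5 libraries. The KO libraries held 6 to 18 counts each where the WT libraries held 182 to 238. The log2FC was −4.73 (SE 0.20, adjusted p = 3.26e-09) in 11H1 and −4.20 (SE 0.18, adjusted p = 5.11e-08) in 14B5, and the clones differed by −0.54 (SE 0.39, adjusted p = 0.246). *JAM2*, a junction adhesion molecule (chr21:25639272-25717562, plus strand), was a low gene of 12 to 40 counts per library, at 0.814, 0.796 and 0.705 CPM in the WT libraries, 0.477, 0.609 and 0.486 CPM in the 11H1 libraries and 0.451, 0.201 and 0.226 CPM in the 14B5 libraries. Its KO libraries were all below WT, with −0.57 (SE 0.23, adjusted p = 0.0464) in 11H1 and −1.46 (SE 0.31, adjusted p = 0.00253) in 14B5. The call in 11H1 was lost when any of 5 of the 6 libraries was left out (adjusted p = 0.0532 to 0.145), and the difference between the clones, 0.87 (SE 0.34, adjusted p = 0.0397), was lost without any of 5 libraries too (0.0691 to 0.149). *JAM2* overlaps *ATP5PF* on the opposite strand, a gene with 54084 counts over the 9 libraries against 214 for *JAM2*. *ADAMTS1*, a secreted metalloprotease, had −0.46 (SE 0.06, adjusted p = 1.66e-05) in 11H1 and −0.83 (SE 0.06, adjusted p = 1.28e-06) in 14B5. *APP*, the amyloid precursor, had −0.36 in 11H1 and −0.18 in 14B5, both called. *ITGB2*, the beta chain of leukocyte integrins, was called in 14B5 (0.39) and not in 11H1 (0.02), and the clones differed by −0.39 (SE 0.04, adjusted p = 6.99e-06). Of 12 genes of *APP* processing on other chromosomes, 2 were called higher and 7 lower in 11H1 and 2 higher and 4 lower in 14B5. *PSEN2*, a catalytic subunit of gamma secretase, had −0.97 and −1.23, *SORL1*, a sorting receptor of *APP*, −2.27 and −2.79, and *BACE1*, the main beta secretase, 0.69 in 11H1, called, and 0.14 in 14B5, not called.

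Of the 5 signaling and adaptor genes, 2 were called lower and 1 higher in 11H1 and 3 lower and 0 higher in 14B5. *TIAM1*, an exchange factor that activates RAC1 (chr21:31118416-31559977, minus strand), was at 74.2, 77.6 and 85.4 CPM in the WT libraries, 51.4, 44.97 and 51.2 CPM in the 11H1 libraries and 18.1, 21.2 and 19.1 CPM in the 14B5 libraries. The 3 groups were ordered WT, 11H1, 14B5 with no overlap. The log2FC was −0.67 (SE 0.07, adjusted p = 3.15e-06) in 11H1 and −2.04 (SE 0.07, adjusted p = 1.36e-08) in 14B5, and 11H1 was above 14B5 by 1.34 (SE 0.07, adjusted p = 3.08e-08). *ITSN1*, an endocytic scaffold, was called lower in 14B5 (−0.43), and in 11H1 it had −0.15 (adjusted p = 0.0679), which was called without WT library 2 (−0.21, 0.0332). *SAMSN1*, an adaptor of blood cells, had −0.35 in 11H1, called, and −0.13 in 14B5, not called (adjusted p = 0.0524; 0.0477 without WT library 1). *SH3BGR*, a gene known from muscle that a read-through gene overlaps, had −0.54 in 11H1, not called, and −0.67 in 14B5, called; without 11H1 library 2 its value in 11H1 was −0.78 (adjusted p = 0.0158).

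The 5 genes of RNA processing, ribosome and nuclear export tended upward in 11H1, where 4 were called higher and 1 lower, and 2 were called higher and 1 lower in 14B5. These counts take *U2AF1* without its near-identical copy, and its call in 14B5 was lost when the copy was added. *SON*, a splicing cofactor of nuclear speckles (chr21:33542618-33577481, plus strand), and *GART*, an enzyme of purine synthesis (chr21:33503931-33543491, minus strand), are the other such pair of opposite strands, and their annotated ends overlap. *SON* was at 603, 625 and 733 CPM in the WT libraries, 1001, 893 and 952 CPM in the 11H1 libraries and 717, 776 and 711 CPM in the 14B5 libraries. *GART* was at 471, 457 and 486 CPM in the WT libraries, 459.7, 449.5 and 474 CPM in the 11H1 libraries and 492, 494 and 498 CPM in the 14B5 libraries. In 11H1 the pair parted, *SON* above every WT library and *GART* among them: the log2FC was 0.54 (SE 0.07, adjusted p = 3.63e-05) for *SON* and −0.03 (SE 0.05, adjusted p = 0.635) for *GART*. In 14B5 it was 0.15 (SE 0.07, adjusted p = 0.104) for *SON*, which was called without WT library 3 (0.26, adjusted p = 0.00358), and 0.05 (SE 0.04, adjusted p = 0.34) for *GART*. The clones differed by 0.38 (SE 0.05, adjusted p = 5.32e-05) for *SON* and by −0.10 (SE 0.04, adjusted p = 0.0508) for *GART*. That of *GART* was called without 11H1 library 3 (−0.12, adjusted p = 0.0400) or 14B5 library 1 (−0.11, 0.0484). Of 11 other genes of purine synthesis, 3 were called higher and 7 lower in 11H1, and 4 higher and 1 lower in 14B5. *PAICS*, which follows *GART* in the pathway, had −0.19 in 11H1, called, and 0.11 in 14B5, not called, and *PRPS1*, which makes the ribose donor, 0.14 and 0.59, both called. *RRP1* and *RRP1B*, related nucleolar proteins of ribosome assembly, moved apart in each clone, *RRP1* with 0.28 in 11H1 and 0.20 in 14B5 and *RRP1B* with −0.29 and −0.28, all called.

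*U2AF1*, the subunit of the splicing factor U2AF that reads the end of the intron (chr21:43092956-43107587, minus strand), has a near-identical copy in the annotation, *U2AF1L5* (chr21:6484623-6499261, minus strand), between which RSEM divides reads. *U2AF1* was given 203, 188 and 178 CPM in the WT libraries, 287, 311 and 317 CPM in the 11H1 libraries and 214, 215 and 216 CPM in the 14B5 libraries. The copy was given 296 to 359 CPM in WT, 333 to 341 CPM in 11H1 and 317 to 394 CPM in 14B5, or 62.5% to 64.3%, 51.7% to 54.0% and 59.7% to 64.5% of the sum. Taken alone, *U2AF1* had 0.69 (SE 0.06, adjusted p = 9.08e-07) in 11H1, while the copy had 0.03 (SE 0.06, adjusted p = 0.704). Summed with the copy, it had 0.31 (SE 0.06, adjusted p = 0.000857), still past the threshold. In 14B5 *U2AF1* alone had 0.17 (SE 0.06, adjusted p = 0.027) and the sum 0.09 (SE 0.07, adjusted p = 0.335), so the call did not outlast the sum, nor the loss of 14B5 library 2 (adjusted p = 0.0545), 14B5 library 3 (0.0552) or WT library 2 (0.0851). Of 6 partners in recognition of the 3′ splice site, 5 were called higher and 0 lower in 11H1 and 3 higher and 0 lower in 14B5. *SF1*, which binds the branch point, had 0.54 and 0.26, and *U2AF2*, the large subunit, 0.26 and 0.15, all called. *CBS*, the enzyme that turns homocysteine into cystathionine (chr21:43053191-43076943, minus strand), was given 116, 114 and 106 CPM in the WT libraries, 128, 135 and 123 CPM in the 11H1 libraries and 119, 124 and 129.9 CPM in the 14B5 libraries. Its copy *CBSL* (chr21:6444869-6468040, minus strand) took 1.30% to 3.55% of the sum. Alone *CBS* had 0.21 (SE 0.05, adjusted p = 0.00485) in 11H1 and 0.13 (SE 0.05, adjusted p = 0.0574) in 14B5, and summed 0.22 (SE 0.05, adjusted p = 0.00264) and 0.13 (SE 0.05, adjusted p = 0.0653). In 14B5 *CBS* was called without 14B5 library 1 (0.18, adjusted p = 0.0316).

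**Figure D5:**
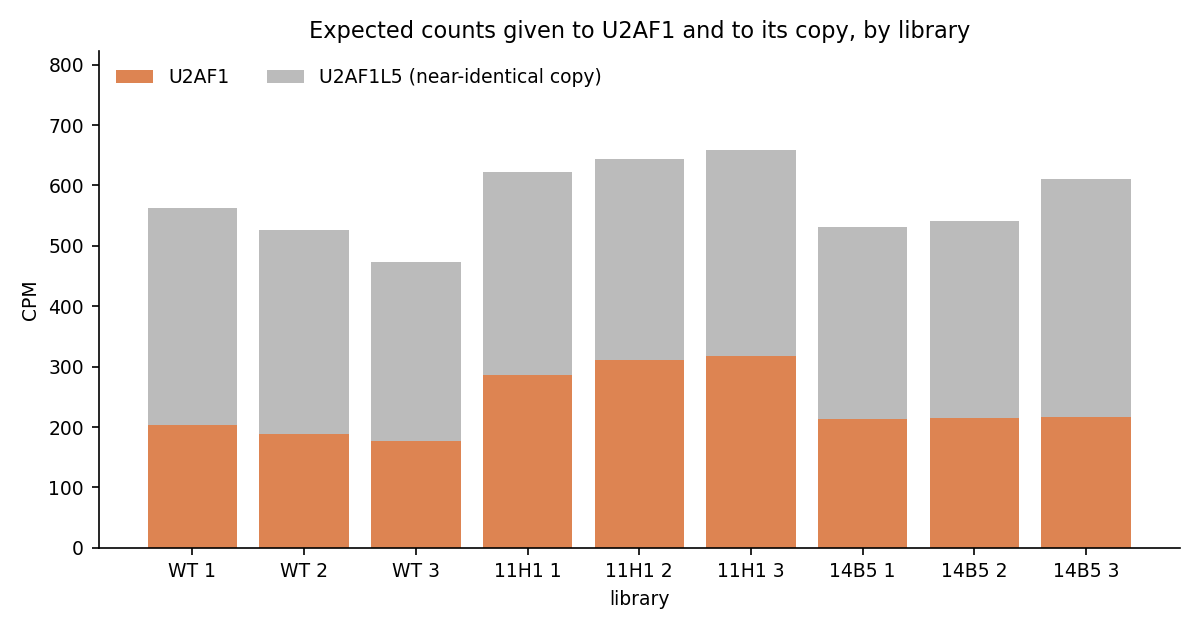
CPM given to *U2AF1* (orange) and to its near-identical copy *U2AF1L5* (gray) in each of the 9 libraries, stacked from 0. The orange part is higher in the 3 libraries of 11H1 than in the other 6, and the gray part is between 296 and 394 CPM in all 9.

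*DONSON*, a protein of the replication fork (chr21:33559542-33588708, minus strand), rose most in 14B5 among the 46 genes. It was at 53.4, 55.7 and 54.6 CPM in the WT libraries, 69.2, 69.9 and 72.4 CPM in the 11H1 libraries and 86.2, 85.1 and 86.6 CPM in the 14B5 libraries. The 3 groups did not overlap and were ordered WT, 11H1, 14B5, with 0.38 (SE 0.04, adjusted p = 1.57e-05) in 11H1, 0.64 (SE 0.04, adjusted p = 1.14e-06) in 14B5 and −0.28 (SE 0.04, adjusted p = 0.0001) between the clones. It overlaps *SON* on the opposite strand, where *SON* has 323889 counts over the 9 libraries against 29863 for *DONSON*. With *PCNT*, it makes up the group of replication and centrosome genes, both of which were called higher in 11H1.

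In the group of 9 genes of protein turnover and folding, 6 were called lower and 2 higher in 11H1, and 2 lower and 3 higher in 14B5. *USP16*, a deubiquitinase of histone H2A (chr21:29024629-29054488, plus strand), was at 67.4, 67.9 and 74.8 CPM in the WT libraries, 89.3, 88.8 and 92.9 CPM in the 11H1 libraries and 94.1, 94.2 and 98.8 CPM in the 14B5 libraries. It was above WT in all 6 KO libraries, with 0.37 (SE 0.05, adjusted p = 4.63e-05) in 11H1, 0.43 (SE 0.05, adjusted p = 6.77e-05) in 14B5 and −0.08 (SE 0.04, adjusted p = 0.139) between the clones. *HSPA13*, a chaperone of the HSP70 family, *USP25*, a deubiquitinase, and *CCT8*, a subunit of the TRiC chaperonin, were called lower in 11H1, at −0.35, −0.27 and −0.27. In 14B5 *CCT8* had −0.18, called (adjusted p = 0.0117; 0.0920 without 14B5 library 2), and *HSPA13* and *USP25* had 0.05 and −0.05, not called. *LTN1*, a ubiquitin ligase of stalled ribosomes, had 0.04 and −0.07, neither called, though without WT library 3 its value in 11H1 was 0.15 (adjusted p = 0.0161).

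Of 9 genes of metabolism and redox, 3 were called lower and 1 higher in 11H1, and 1 lower and 2 higher in 14B5. *CBR1*, a carbonyl reductase that inactivates anthracyclines (chr21:36069941-36073166, plus strand), was at 35.6, 35.3 and 30.9 CPM in the WT libraries, 19.3, 20.2 and 18.6 CPM in the 11H1 libraries and 30.7, 30.1 and 33.2 CPM in the 14B5 libraries. It was lower in 11H1 alone, with −0.80 (SE 0.07, adjusted p = 8.86e-07) in 11H1 and −0.13 (SE 0.07, adjusted p = 0.122) in 14B5, where the groups overlapped; without WT library 3 the 14B5 value was −0.18 (adjusted p = 0.0209). Its sister gene *CBR3* had −0.61 in 11H1, called, and −0.02 in 14B5, not called. The clones differed by −0.69 (SE 0.06, adjusted p = 1.09e-06) for *CBR1* and −0.60 (SE 0.08, adjusted p = 6.57e-05) for *CBR3*. *CBR1* overlaps *SETD4* on the opposite strand, and *SETD4* had 0.08 in 11H1 and −0.09 in 14B5, neither called. *SOD1*, the cytosolic superoxide dismutase, was called higher in 14B5 (0.30), and in 11H1 it had 0.07, not called. *PDXK*, the kinase of vitamin B6, had 0.00 and 0.12, and *CRYZL1*, a quinone oxidoreductase-like gene, −0.07 and −0.10, none of them called. *SLC19A1*, the folate carrier, had 0.12 in 11H1, not called (0.16, adjusted p = 0.0367, without WT library 2), and 0.15 in 14B5 (adjusted p = 0.0381), a call lost when any of 5 of the 6 libraries was left out (0.0509 to 0.0996).

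Among 6 transcription factors and coregulators, counting *ERG*, *ETS2* and *BTG3*, 5 were called lower and 1 higher in 11H1 and 2 lower and 1 higher in 14B5. *GABPA*, an ETS factor of genes for mitochondria, had −0.30 in 11H1, called, and 0.14 in 14B5, not called; without 14B5 library 3 or WT library 3 the latter was 0.21 (adjusted p = 0.0458) and 0.24 (0.0151). *BACH1*, a heme-sensing repressor, had −0.26 in 11H1, called, and −0.03 in 14B5, not called. *NRIP1*, a corepressor of nuclear receptors, had 0.29 in 11H1, called although its libraries overlapped WT, and 0.15 in 14B5, not called (0.26, adjusted p = 0.00482, without WT library 3). Among 6 chromatin genes, counting *MORC3* and *CHAF1B*, 3 were called lower and 1 higher in 11H1 and 0 lower and 1 higher in 14B5. *HMGN1*, a nucleosome-binding protein, had −0.20 in 11H1, called, and 0.06 in 14B5, not called. *BRWD1*, a bromodomain protein and the first of the 53 beyond *ETS2*, had −0.12 in 11H1 (adjusted p = 0.0526; called without WT library 1, −0.18, 0.00983) and −0.08 in 14B5, not called.

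In the direct test of the clones 35 of the 53 genes were called, with 12 on the side of 11H1 and 23 on that of 14B5. These 66.0% are near the 63.7% called over all genes tested. Beside *DYRK1A* the median of this difference was −0.06, with 4 of 7 genes called: *MORC3*, *CHAF1B* and *PIGP* lower and *HLCS* higher in 11H1. Leaving out 11H1 library 3 or 14B5 library 1 left 2 of these 4 calls. Before *MORC3*, 15 of 27 genes were lower and 5 higher in 11H1 (median −0.24), and after *ETS2* 5 of 19 were lower and 6 higher (median 0.06). The widest differences were those of *TIAM1* (1.34) and *PCNT* (1.07) on the side of 11H1, and of *IL10RB* (−0.80), *CBR1* (−0.69) and *SUMO3* (−0.69) on that of 14B5.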

How the data were processed

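Expected counts per gene were deposited by the authors for 9 SET2 libraries, without scaling for depth or length. The submitters' processing notes name STAR 2.7.9a, Picard, RSEM and GRCh38; the annotation release and the use of strand in counting are not given in the sources used here, and the sources differ on the library kit. Of 60754 rows, 92 were spike-ins, all at 0, and were left out. Counts were rounded, filtered by edgeR's filterByExpr and TMM-scaled, and each clone was compared with WT (and 11H1 with 14B5) by the quasi-likelihood test of edgeR 4.0.16 in R 4.3.3, with Benjamini-Hochberg adjustment over all genes tested. These steps were tested on simulated data. GENCODE v29 placed 58542 of 60662 genes (96.5%) by identifier.

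The 53 genes and all lists were chosen with earlier results of these data known. Values per library are given for *DYRK1A* and the 7 genes beside it, the 3 largest rises and falls further away in each clone, up to 5 genes called in opposite directions, pairs of opposite strands with starts within 1000 bases, and genes with a near-identical copy. Other genes are given by role group. From the list of receptor partners, 1 gene is not reported here and was left out of its counts. Libraries held 32347779 to 60272245 expected counts, so 3 counts correspond to 0.0498 to 0.0927 CPM per library, a limit of counting alone.

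Alternatives were DESeq2 1.42.0 size factors and Wald test, limma 3.58.1 (voom), other filters, 1 fit with 3 groups, a replicate block, protein-coding genes only, TMM factors from other chromosomes, each library left out, and other definitions of beside and further away. Library pairs of a group differed by more than sampling noise, so none was merged.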

Additional observations from a re-analysis of the deposited data

Results flagged for a closer look

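In 6 of the 53 genes the clones were called in opposite directions against WT and differed from each other in edgeR's quasi-likelihood test. How many of all genes tested did so was not counted, so whether 6 is many is not known. Of all genes tested, 64.6% were called in 11H1 versus WT and 53.5% in 14B5 versus WT. The log2FC of 11H1 versus 14B5 was −0.80 for *IL10RB* (adjusted p = 8.83e-08), −0.69 for *SUMO3* (2.22e-07), −0.62 for *IFNGR2* (6.46e-07), −0.56 for *BTG3* (6.11e-06), −0.47 for *CSTB* (1.25e-05) and −0.31 for *CHAF1B* (5.94e-05), and in each all 3 libraries of 11H1 were below all 3 of 14B5. In 14B5 versus WT the calls of *CHAF1B* and *BTG3* were lost in 7 and 3 of 15 alternative settings. Groups of 3 libraries were not searched for outlying libraries.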

How the results depend on the processing

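No gene of the 53 changed direction past the threshold under any alternative. Of 42 genes called in 11H1 versus WT, 40 kept the call in every setting, as did 21 of 28 in 14B5 versus WT and 31 of 35 in 11H1 versus 14B5. Of those not called, 5 of 11, 8 of 25 and 8 of 18 gained a call in some setting. With 1 library left out, the number of genes called was 40 to 42, 24 to 30 and 33 to 36, and of the 7 beside *DYRK1A* 2 to 4 were called in 11H1 versus 14B5. The median of the 46 genes further away in 14B5 (0.02) was 0.05 with no filter and ran from 0.00 to 0.06 with 1 library left out, and that of the 19 genes after *ETS2* in 14B5 (0.06) was 0.10 with no filter, 0.05 to 0.10 with 1 library left out, and 0.12 with the trend on GC content and length removed, an alternative chosen after seeing the data. The difference of medians in 11H1 was −0.42 against all chromosome 21 genes outside the stretch, in place of −0.23. In 14B5 the same choice made the difference narrower, since those genes had a median of −0.07. The median beside *DYRK1A* in 14B5 was −0.14 for genes within 2000000 bases, in place of −0.46. These changes follow from which genes were counted, and the cause of the other shifts was not tested.

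With a replicate block, 43, 23 and 35 of the 53 genes were called in the 3 comparisons, and 10710, 7529 and 10099 of all genes. Deviations of same-numbered libraries correlated at −0.19 to 0.06 over 9 pairs, 0 of them over 0.1. Those of differently numbered libraries correlated at −0.14 to 0.17. No pairing by number was seen. Deviations of 3 libraries from their own mean depend on each other, so these values cannot show whether libraries shared a culture or preparation. *BACE2* gave no value with at least 10 counts required in every library in 11H1 versus WT and 11H1 versus 14B5, nor in the latter without 14B5 replicate 3. Low counts limit the values of *BACE2* and *JAM2*.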
